A study of Mus musculus with 2 samples.

Results

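The genes of the translation initiation and elongation factors were examined in single-nucleus RNA-seq of the mouse brainstem. Members were chosen by symbol, as every gene in the counts whose name begins with Eif and a digit from 1 to 6 or with Eef and a digit from 1 to 2, leaving out pseudogenes and opposite-strand transcripts, so no measured value entered the choice. The rule gave 68 of 25556 genes. Of these, 67 held at least 20 UMIs in both libraries together and were compared. The other member, *Eif2c5*, carries an older name of the Argonaute family of small RNA-binding proteins, is not a translation factor by function, and held 0 UMIs in WT and 9 in HET.

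Initiation factors bring the small ribosomal subunit, the initiator tRNA and the capped mRNA together. eIF4E binds the cap, eIF4G bridges it to the helicase eIF4A and to the many-subunit eIF3 on the small subunit, and eIF2 carries the initiator tRNA in a GTP-dependent cycle that eIF2B recharges. Stress kinases slow that cycle by phosphorylating eIF2, and the 4E-binding proteins, which mTOR phosphorylates, compete with eIF4G for eIF4E. Elongation factors then deliver tRNAs (eEF1) and move the ribosome along the mRNA (eEF2). Neurons are known for local and activity-dependent control of these steps. Ribosomal protein genes, which supply the ribosome itself, were the set against which the factors were read.

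The study compared 1 WT mouse with 1 HET littermate, both female, on a C57Bl6 background, untreated, and at postnatal day 41. HET mice (Scn1aA1783V/WT) carry 1 missense knock-in copy of *Scn1a*, which encodes a voltage-gated sodium channel subunit and is mutated in Dravet syndrome, and were bred from a floxed *Scn1a* male and a Sox2-Cre female. Sox2-Cre acts in the early embryo, so the allele is not limited to a cell type. UMIs, unique molecular identifiers that mark each captured RNA molecule once, were summed over nuclei and expressed per 1000000 UMIs (CPM), and changes are given as log2 ratios of CPM, HET over WT. With 1 library per genotype there was no replicate and no test between genotypes. The intervals are exact, at 95%, and cover counting error only, so they say nothing about differences between mice.

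The WT library held 70301390 UMIs in 9259 nuclei and the HET library 66176778 UMIs in 9022 nuclei, and 23 cell barcodes occurred in both. The median share of mitochondrial UMIs per nucleus was 0.343% in WT and 0.458% in HET, and that of ribosomal protein UMIs 0.696% and 0.407%. *Scn1a* stood at 380.2 and 420.4 CPM in the WT and HET libraries, and since a missense copy is still transcribed, its level does not check the genotype labels. The nuclear RNA *Malat1* differed by −0.06 on the log2 scale. Of the 16 deposited clusters, 12 had at least 30 nuclei from each mouse and were compared. They are called by their deposited names, and in some of them neuronal markers summed higher than the markers of the named type. In the cluster named micro, the summed level of 4 neuronal markers was 8895 CPM in WT and 9801 CPM in HET, against 678 and 709 CPM for 4 microglial markers. In fibro, the neuronal markers summed to 2943 and 2947 CPM and 3 fibroblast markers to 612 and 740 CPM. In epend.1 the neuronal markers summed to 3108 and 6802 CPM and 3 ependymal markers to 2654 and 3077 CPM. Most of each neuronal sum was *Meg3*, at 7674 and 8165 CPM in micro, 2479 and 2457 in fibro, and 2560 and 5913 in epend.1. *Syt1* was at 602 and 714 CPM in micro, 231 and 277 CPM in fibro and 311 and 326 CPM in epend.1. In fibro and epend.1 the order of the sums therefore rests on *Meg3*. Micro, fibro and epend.1 each had the highest sum of the 12 clusters for their own markers.

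The mRNAs of ribosomal proteins and of several factors are known to begin with a run of pyrimidines (C or T) directly at the cap, the terminal oligopyrimidine or TOP motif, through which mTOR controls their translation. RefSeq start sites on GRCm38.p6 were therefore searched, on the gene's strand, for a C within 5 bases of the start that is followed by at least 4 further bases, each C or T. Windows of 30 bases (10 before the start and 20 from it) are shown as examples, with the run in capitals. They cover some of the 14 members with a run, the members furthest apart in HET against WT, and 2 ribosomal protein genes. Among those not shown are *Eif4enif1* (0.11) and *Eif2ak4* (0.00), the compared members with a run and a log2 ratio above 0.
Eif3f, chr7:108934405-108934434, plus strand: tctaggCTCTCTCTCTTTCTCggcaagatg
Eif3l, chr15:79075213-79075242, plus strand: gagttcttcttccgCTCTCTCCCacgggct
Eif2b5, chr16:20498807-20498836, plus strand: ctctttCTCTCCCTgcaactacaccttcgc
Eif2s3x, chrX:94212632-94212661, minus strand: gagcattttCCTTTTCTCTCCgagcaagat
Eif3k, chr7:28981869-28981898, minus strand, no run: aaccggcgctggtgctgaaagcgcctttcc
Eef1akmt2, chr7:132852628-132852657, minus strand, no run: cccctctgcccaaatcgcgtctctatggcg
Rpl27a, chr7:109519185-109519214, plus strand: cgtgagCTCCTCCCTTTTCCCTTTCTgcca
Rps16, chr7:28350679-28350708, plus strand, no run: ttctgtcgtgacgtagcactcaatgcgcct

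A run was found in 14 of the 53 members with a listed promoter (26.4%), in 30 of 63 ribosomal protein genes (47.6%) and in 3867 of all 17096 genes in the counts with a promoter (22.6%). Of the 9 members listed below as TOP mRNAs, 5 had a listed promoter and 2 of these had a run. A run was thus more frequent in ribosomal protein genes than in all genes, but the search did not find one in every listed TOP mRNA. The members with a run by this search did not stand apart in HET against WT. Their median log2 ratio was −0.29 over the 13 that passed, with 11 lower in HET. That of the 39 members without a run was −0.26, with 33 lower. Of all genes that passed, 58.9% were lower. The windows above show both outcomes, since *Eif3f* with a run was 0.70 lower on the log2 scale, *Eif2s3x* with a run 0.15 lower, and *Eif3k* without one 0.80 lower. A listed start need not be the one used in the brainstem, so the absence of a run says only that these letters are not in the window.

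Over all nuclei the factor genes were mostly lower in HET, by much less than the ribosomal protein genes. Of the 67 members, 55 had a log2 ratio below 0, against 58.9% of all 21997 genes that passed, and the median was −0.26, against −0.09 over all genes. The counting interval lay below 0 for 46 members (39.8% of all genes) and above 0 for 7 (24.8% of all genes). A ratio at or below −0.5 was reached by 17 members, against 19.1% of all genes, and none reached 0.5, against 12.8% of all genes. The ratios ran from −0.80 for *Eif3k* to 0.48 for *Eef1akmt2*. Summed over members, the level was 2414 CPM in WT (95% interval 2402 to 2425) and 2039 CPM in HET (2028 to 2049), a log2 ratio of −0.24.

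**Figure D1:**
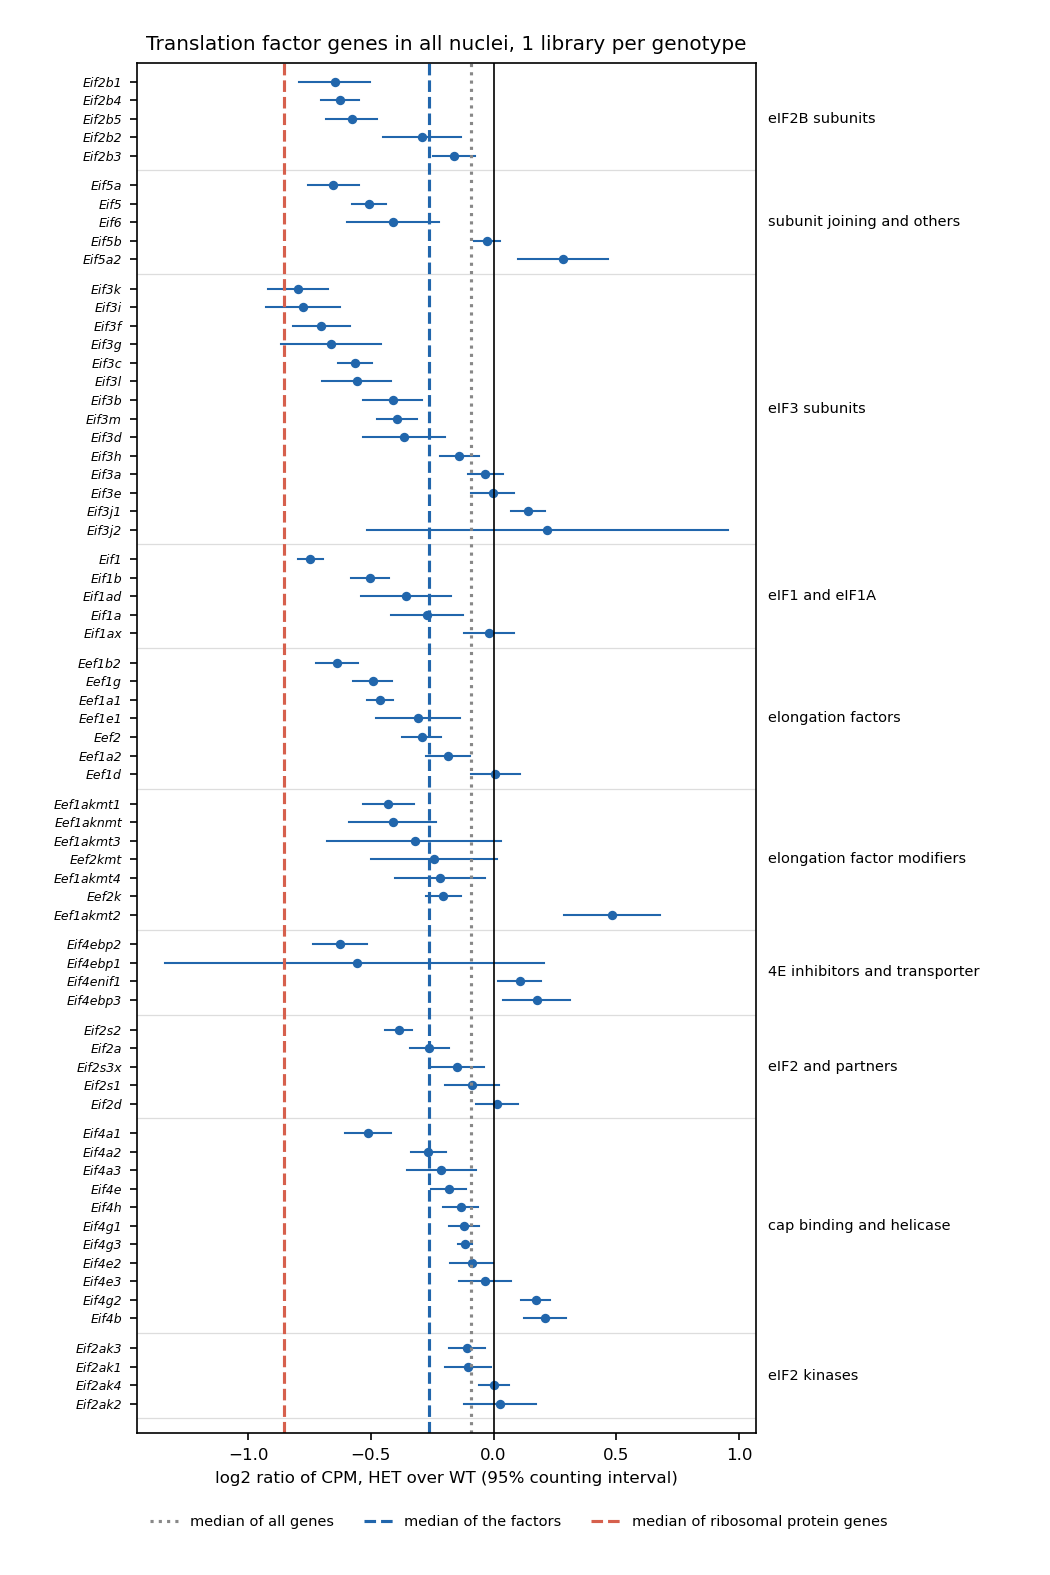
Log2 ratio of CPM (HET over WT) of the 67 translation factor genes in all nuclei, grouped by role, with bars for the exact 95% counting interval of 1 library against 1 library. Dashed lines mark the medians of the factors (−0.26) and of the ribosomal protein genes (−0.85), and a dotted line the median of all genes (−0.09), and the points run from −0.80 to 0.48 with 55 of 67 below 0.

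The ribosomal protein genes gave a narrower and lower picture. All 82 that passed were lower in HET, 75 of them at or below −0.5, with a median of −0.85 and a range from −1.49 for *Rps16* to −0.19 for *Rpl4*. Their summed level was 5470 CPM in WT and 3029 CPM in HET. The factor median lay 0.59 above the ribosomal protein median on the log2 scale, and no member was as low as the ribosomal protein median, although as a mean over nuclei of CPM *Eif3i*, at −1.03, lay below the ribosomal protein median of −0.97. The factors thus shared the direction of the ribosomal protein genes in 55 of 67 members, and 17 of 67, against 75 of 82, were at or below −0.5. With every cluster given the same share of UMIs in both libraries, the factor median was −0.20 and the ribosomal protein median −0.83. The reading depends on the scaling, since the median over all genes was not 0. When the median of the 16347 genes with at least 200 UMIs was set to 0, which shifts every ratio up by 0.10, the factor median became −0.16, 48 members remained below 0, 10 stood at or below −0.5 and 1 at or above 0.5. The shares over all genes given above belong to the unshifted ratios. They were not recomputed in this scaling, so these counts have no share to stand beside.

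The 43S factors held the members with the lowest ratios. The 58.9% of all genes that were lower in HET stands beside the counts of each role group that follow. eIF3, the scaffold between ribosome and mRNA, had 12 of its 14 genes lower in HET, with a median of −0.40. *Eif3k* was at 22.5 CPM in WT and 12.9 CPM in HET, which is −0.80 on the log2 scale (−0.92 to −0.68) from 1580 and 856 UMIs. It lies on chromosome 7 from 28971372 to 28981864 (GENCODE vM21, GRCm38). *Eif3i* followed at 14.8 and 8.61 CPM (−0.78), *Eif3f* at 23.1 and 14.2 CPM (−0.70), *Eif3g* at 7.58 and 4.79 CPM (−0.66) and *Eif3c* at 60.9 and 41.2 CPM (−0.56). These subunits had intervals well apart from those of *Eif3a* (−0.03, interval −0.10 to 0.04) and *Eif3e* (0.00, −0.09 to 0.09), which belong to the same complex but have longer genes. *Eif3j1*, a loosely bound subunit, was higher in HET at 47.4 and 52.2 CPM (0.14, 0.07 to 0.21), and its near copy *Eif3j2* held only 32 and 35 UMIs, so reads may be split between them.

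eIF1 and eIF1A guard the choice of the start codon. All 5 genes grouped with them by symbol were lower, with a median of −0.36. That median is the value of *Eif1ad*, which is in the group by its name only. *Eif1* had the third lowest ratio of all members and the second largest number of UMIs. It held 8387 UMIs in WT and 4707 in HET, 119.3 and 71.1 CPM, a log2 ratio of −0.75 (−0.80 to −0.69). Its copy *Eif1b* was at 49.9 and 35.2 CPM (−0.50). The X-linked *Eif1ax* differed by −0.02 (−0.12 to 0.08) and its autosomal copy *Eif1a* by −0.27 (−0.42 to −0.12).

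Within the eIF2 cycle the exchange factor, the substrate and the kinases differed in the size of their ratios. They also differed in gene length, which is given below. All 5 eIF2B genes, which recharge eIF2 with GTP and are mutated in vanishing white matter disease, were lower in HET, with a median of −0.58. *Eif2b5*, the catalytic subunit, was at 27.6 CPM in WT and 18.5 CPM in HET (−0.58, −0.68 to −0.47), *Eif2b1* at 14.8 and 9.49 CPM (−0.65) and *Eif2b4* at 50.5 and 32.7 CPM (−0.63), whereas *Eif2b3* differed by −0.16. Among the eIF2 subunits themselves, *Eif2s3x* and *Eif2s1* lay near the median of all genes and *Eif2s2* lay lower. *Eif2s2* (beta) was at 90.3 and 69.1 CPM (−0.39, −0.44 to −0.33), *Eif2s3x* (gamma) at 20.9 and 18.8 CPM (−0.15) and *Eif2s1* (alpha, the phosphorylated subunit) at 20.4 and 19.2 CPM (−0.09, −0.20 to 0.02). The 4 kinases had a median of −0.05 and ranged from −0.11 to 0.03. Among them *Eif2ak3* (PERK) was at 44.8 and 41.6 CPM (−0.11, −0.18 to −0.03) and *Eif2ak4* (GCN2) at 64.5 and 64.6 CPM (0.00, −0.06 to 0.06).

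The cap-binding and helicase genes had a median of −0.12, close to that of all genes, with 9 of 11 lower. *Eif4e*, the cap-binding protein, was at 50.7 CPM in WT and 44.7 CPM in HET (−0.18, −0.25 to −0.11), and the scaffolds *Eif4g1* (65.4 and 60.1 CPM) and *Eif4g3* (264.1 and 243.6 CPM) each differed by −0.12. The helicase *Eif4a1* was at 33.6 and 23.6 CPM (−0.51, −0.60 to −0.42) and its copy *Eif4a2* at 52.7 and 43.8 CPM (−0.27, −0.34 to −0.19), so their intervals did not overlap. The only members of the group above 0 were *Eif4g2*, a scaffold that does not bind eIF4E (62.9 and 70.9 CPM, 0.17), and *Eif4b*, which stimulates the helicase (29.9 and 34.5 CPM, 0.21, 0.12 to 0.30). The eIF4E inhibitors lay on both sides of 0. *Eif4ebp2*, the main 4E-binding protein of the brain, was at 25.1 and 16.3 CPM (−0.63, −0.74 to −0.52), while *Eif4ebp3* was at 12.1 and 13.7 CPM (0.18, 0.04 to 0.31). *Eif4ebp1* held only 39 and 25 UMIs (−0.55, −1.34 to 0.21), too few to give a direction, and *Eif4ebp2* overlaps another gene, Gm48086, on the same strand.

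The later steps repeated the mixture. *Eif5a*, which eases the ribosome through difficult stretches and is the known hypusine-bearing protein, was at 28.6 CPM in WT and 18.2 CPM in HET (−0.65, −0.76 to −0.55), while *Eif5b*, the GTPase of subunit joining, was at 87.6 and 86.0 CPM (−0.03). Of the 7 genes grouped by symbol as elongation factors, 6 were lower in HET, with a median of −0.31, the value of *Eef1e1*. *Eef1a1*, which delivers aminoacyl-tRNA, was at 101.0 and 73.3 CPM (−0.46, −0.51 to −0.41) from 7101 and 4854 UMIs, its exchange factor *Eef1b2* at 41.0 and 26.4 CPM (−0.64), and *Eef2*, the translocase, at 41.1 and 33.6 CPM (−0.29, −0.37 to −0.21). A second exchange factor gene, *Eef1d*, differed by 0.01, and it overlaps Naprt on the same strand. Among 7 genes for modifiers of the elongation factors, 6 were lower, with a median of −0.24. The exception was the methyltransferase gene *Eef1akmt2*, the highest of all members, with 375 UMIs in WT and 493 in HET (5.33 and 7.45 CPM, 0.48, 0.29 to 0.68). It lies on chromosome 7 from 132827457 to 132852673 and overlaps the neighbouring gene Fgfr2 on the same strand, so some of its UMIs may come from that gene.

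For 5 paralog pairs, the share of each copy in the UMIs of its pair was computed. The neuronal and muscle form *Eef1a2* made up 23.5% (22.7 to 24.4, exact Clopper-Pearson interval) of the UMIs of *Eef1a1* and *Eef1a2* in WT and 27.1% (26.1 to 28.2) in HET, *Eef1a2* itself being at 31.1 and 27.3 CPM (−0.19). In neuron.1 its share was 29.0% in WT and 32.5% in HET, in neuron.4 41.6% and 47.8%, in oligo 9.67% and 10.8%, and in endo 3.04% and 5.26%, but it was lower in HET in neuron.2, at 22.5% and 20.9%, and in neuron.5, at 33.3% of 15 UMIs and 24.9% of 189. The share of *Eif5a2* in its pair with *Eif5a* was 18.5% (17.0 to 20.1) in WT and 30.3% (28.2 to 32.5) in HET. That difference was present in neuron.1, at 18.5% and 33.8%, and not in oligo, at 22.1% (16.9 to 28.0) and 23.6% (18.6 to 29.3), and the difference between clusters was not tested. *Eif5a2* was at 6.50 and 7.90 CPM (0.28, 0.10 to 0.47) from 457 and 523 UMIs, but as a mean over nuclei of CPM, which gives shallow nuclei the same weight, its log2 ratio was 0.01. *Eif5a2* was lower in HET in 4 of the 6 clusters that passed, with the interval above 0 only in neuron.1. Over all nuclei *Eif4a2* made up 61.1% and 65.0% of its pair, *Eif1b* 29.5% and 33.1%, and *Eif1ax* 65.0% and 68.8% of its pair with *Eif1a*. The *Eif4a2* share was lower in HET in neuron.3, neuron.5 and fibro, and that of *Eif1b* in neuron.2 and oligo. That of *Eif1ax* was lower in HET in neuron.2 to neuron.5, micro, fibro and epend.1, for example 74.1% and 67.7% in neuron.2. Near-identical copies and processed pseudogenes, of which *Eef1a1* has many, can take reads from these genes, so the shares are of counted UMIs.

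The same order of factors and ribosomal protein genes was seen in the clusters. In each of the 12 clusters the ribosomal protein median lay below the factor median. In neuron.1, the largest cluster, 52 of 67 factors were lower in HET (58.5% of all genes) and the median was −0.23, against −0.82 for ribosomal protein genes and −0.09 for all genes. The factor median was −0.26 in neuron.2 (51 of 64 lower, 59.3% of all genes), −0.14 in neuron.3 (45 of 64, 55.8%), −0.21 in neuron.4 (43 of 63, 55.6%) and −0.17 in neuron.5 (27 of 49, 50.2%). In neuron.7, whose nuclei carried the serotonergic markers, 19 of 38 were lower (56.6% of all genes) and the median was −0.01, although the ribosomal protein median was −0.93. That cluster had 46 WT and 33 HET nuclei, and the summed level of its factors was 2265 CPM in WT and 2017 CPM in HET, a log2 ratio of −0.17. Limited to the 2 members with at least 100 UMIs there, *Eef1a1* and *Eif4g3*, the median was −0.56. Among glia the medians were −0.30 in oligo (52 of 64 lower, 58.8%) and −0.33 in astro (50 of 62, 60%), and they were −0.28 in micro (43 of 56, 56.3%) and −0.11 in fibro (24 of 38, 53.8%).

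**Figure D2:**
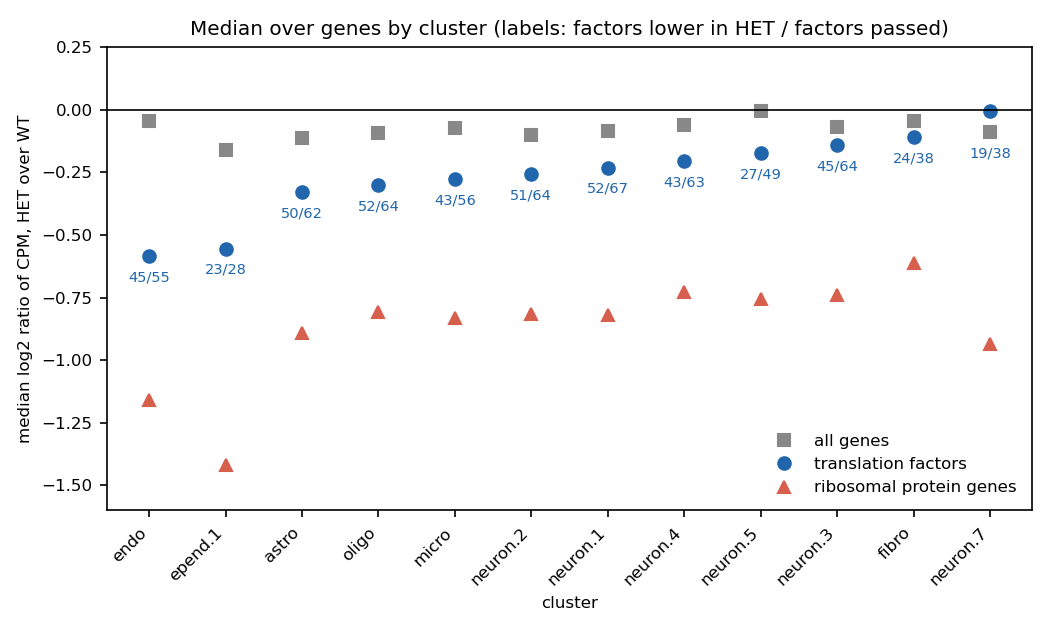
Median log2 ratio of CPM (HET over WT) over all genes (squares), translation factors (circles) and ribosomal protein genes (triangles) in the 12 compared clusters, ordered by the factor median. The factor median lies above the ribosomal protein median in each cluster, from −0.59 in endo to −0.01 in neuron.7, and the fractions give the factors lower in HET of those that passed.

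The lowest factor medians were those of endo, at −0.59 (45 of 55 lower, 52.6% of all genes), and epend.1, at −0.56 (23 of 28, 59.5%). The ribosomal protein medians there were −1.16 and −1.42, the lowest of the 12. Other values moved in the same clusters. The summed level of 4 neuronal markers was 1422 CPM in WT and 3203 CPM in HET in endo, and 3108 and 6802 CPM in epend.1. Most of each sum was *Meg3*, at 1141 and 2610 CPM in endo and 2560 and 5913 CPM in epend.1. In endo each of the 4 was higher in HET. In epend.1 *Snap25* was at 191 and 502 CPM, but *Syt1* at 311 and 326 CPM and *Rbfox3* at 47.1 and 61.6 CPM. In epend.1 the 2 oligodendrocyte precursor markers summed to 289 CPM in WT and 17.6 CPM in HET. The 3 endothelial markers in endo summed to 5290 and 3781 CPM in WT and HET, and *Malat1* in endo was at 110412 and 130292 CPM. Summed choroid plexus markers were higher in WT in all 12 clusters, for example 235 and 30.6 CPM in neuron.1 and 717 and 90.0 CPM in oligo. Most of each sum was *Ttr*, at 232 and 28.5 CPM in neuron.1 and 713 and 88.4 CPM in oligo. The other markers of that list, *Folr1* and *Kl*, held few UMIs and were not lower in HET everywhere. *Kl* in endo, for example, was at 2.96 and 9.17 CPM from 2 and 3 UMIs. The part of these differences in the factor values was not tested, but with nuclei limited to those whose deposited reference label names the type of the cluster, the factor median was −0.52 in endo (161 WT and 48 HET nuclei) and −0.32 in epend.1 (63 and 25), and the ribosomal protein medians were −0.66 and −0.92. In fibro the same limit left 17 WT and 23 HET nuclei and 4 factors, with a median of 0.26 in place of −0.11.

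Some factors were lower in HET in every cluster that held enough of their UMIs. Of the 64 members with at least 20 UMIs in at least 5 clusters, 12 were lower in HET in each of those clusters, against 11.8% of all genes with that coverage and 67 of 80 ribosomal protein genes. They were *Eef1b2*, *Eif3m* and *Eif5* in 12 of 12, *Eif4ebp2* in 11 of 11, *Eif3k* and *Eif2b5* in 9 of 9, *Eif3i*, *Eif3l* and *Eif1ad* in 8 of 8, *Eif2b1* and *Eif3g* in 7 of 7 and *Eef2kmt* in 5 of 5. *Eif1* was lower in 11 of 12, with intervals below 0 in 10. Its log2 ratio was −0.72 in neuron.1, −0.64 in oligo, −0.73 in astro and −1.29 in endo, and 0.05 (−0.64 to 0.73) in neuron.7. Of the 64, only *Eif4ebp3*, in 7 clusters, and *Eef1akmt2*, in 6, were higher in each, against 5.24% of all genes. *Eif4b* was higher in 9 of 11 clusters, with 0.27 (0.17 to 0.38) in neuron.1 and 0.27 (−0.03 to 0.56) in oligo.

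**Figure D3:**
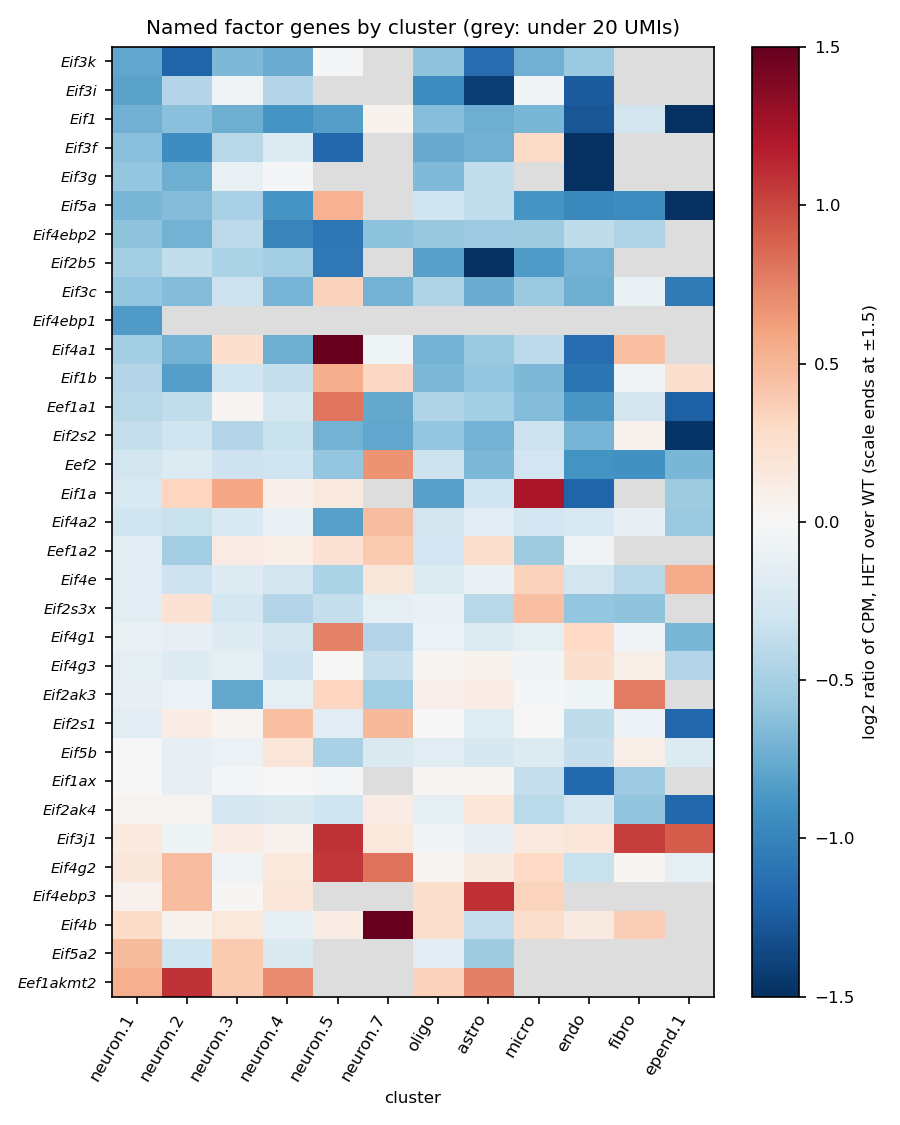
Log2 ratio of CPM (HET over WT) of the 33 named factor genes (rows, ordered by their ratio in all nuclei) in the 12 compared clusters (columns), with blue for lower and red for higher in HET and grey where a gene held under 20 UMIs. The upper rows, from *Eif3k* to *Eif3c*, are blue in most columns, the lower rows, from *Eif3j1* to *Eef1akmt2*, are mostly red except *Eif5a2*, which is lower in HET in 4 of 6 clusters, and neuron.5, with 42 WT nuclei, holds strong colours of both signs.

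The levels themselves also differed between clusters. Summed over members, the level in WT ranged from 2150 CPM in neuron.4 to 6563 CPM in endo, and in HET from 1830 CPM in neuron.4 to 4105 CPM in endo. The higher level in endo was uneven across genes. *Eif1* was at 865 CPM in WT and 355 CPM in HET in endo, against 102 and 61.8 CPM in neuron.1. *Eef1a1* was at 707 and 385 CPM in endo, 192 and 140 CPM in oligo and 80.6 and 60.5 CPM in neuron.1. *Eif4g3* was at 200 and 235 CPM in endo and at 275 and 250 CPM in neuron.1, and stayed between 192 and 331 CPM in all 12 clusters of both libraries. *Eef1a2* was at 32.9 and 29.2 CPM in neuron.1 and at 14.7 and 17.3 CPM in astro. Its value in micro, 48.9 and 33.9 CPM, stands beside the neuronal markers of that cluster given above.

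**Figure D4:**
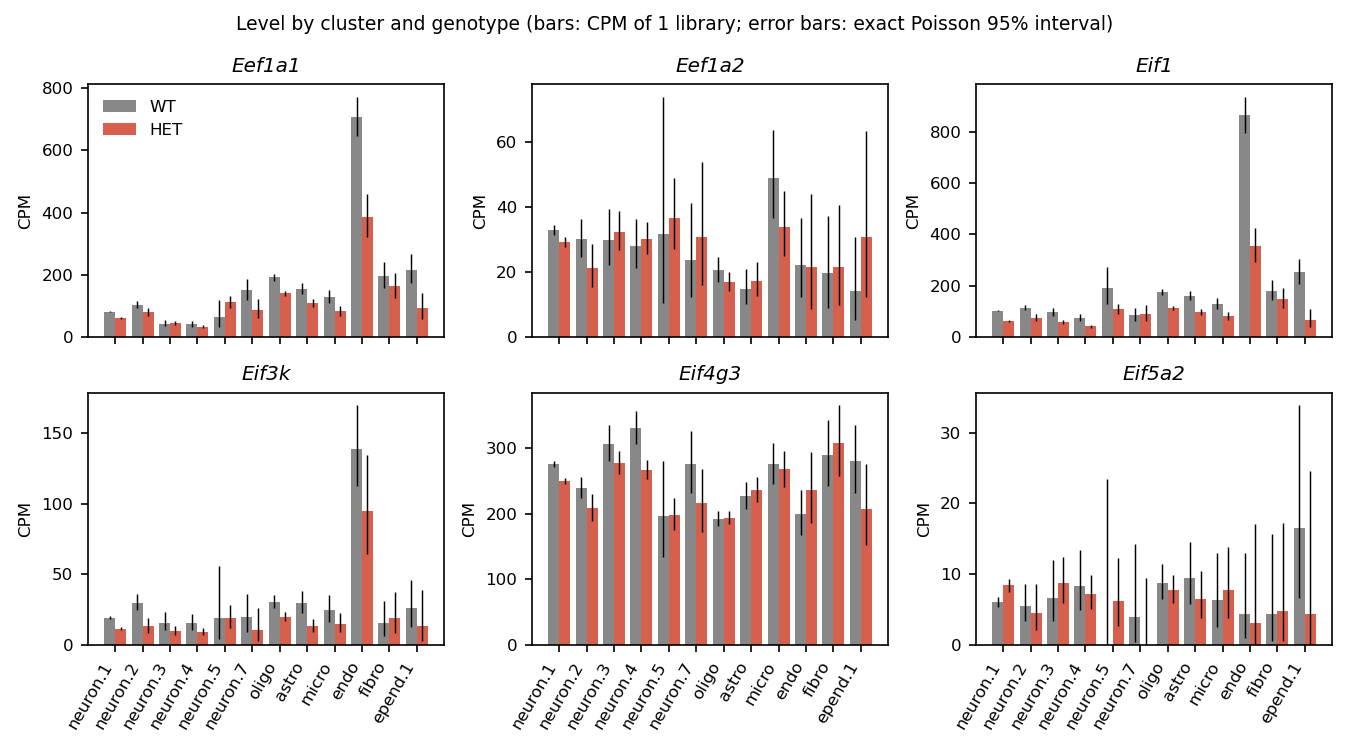
Level (CPM) of 6 factor genes in the 12 compared clusters, with grey bars for the WT and red bars for the HET library and error bars for the exact Poisson 95% interval of 1 library. *Eef1a1*, *Eif1* and *Eif3k* stand highest in endo and are lower in HET in most clusters, whereas *Eif4g3* lies between 192 and 331 CPM throughout and *Eef1a2* and *Eif5a2* have wide intervals outside neuron.1.

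Ratios went with gene length. Short genes were lower in HET in the library as a whole, and ribosomal protein genes are short, with a median annotated length of 3.27 kb, against 17.5 kb for the factors and 20.3 kb for all genes. Across 66 factors with a length, Spearman's rho between length and log2 ratio was 0.53, against 0.24 across 21503 genes, a description over genes that share the same 2 libraries. In the class under 5 kb the median was −0.50 for 7 factors, −0.87 for 64 ribosomal protein genes and −0.30 for all other genes. From 5 to 10 kb it was −0.51 for 13 factors, all 13 of them lower, −0.79 for 14 ribosomal protein genes and −0.25 for the others. In that class 67.5% of all genes were lower. From 10 to 20 kb the 19 factors had a median of −0.32 and the others −0.18, and from 20 to 50 kb the 19 factors had −0.09 and the others −0.11. In the 3 classes up to 20 kb the factor median lay between those of the ribosomal protein genes and of the other genes. The role groups above were not matched for length. *Eif2b1* and *Eif2b4* spanned 8.92 and 5.87 kb, *Eif2b3* (−0.16) 67.9 kb and *Eif2b2* (−0.29) 7.15 kb. The eIF2 kinase genes spanned 30.01 to 86.62 kb. In eIF3, *Eif3i* spanned 8.69 kb, *Eif3c* (−0.56) 19.96 kb, *Eif3a* 29.54 kb and *Eif3e* 32.66 kb. The part of length in the contrasts between and within these groups was not tested.

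**Figure D5:**
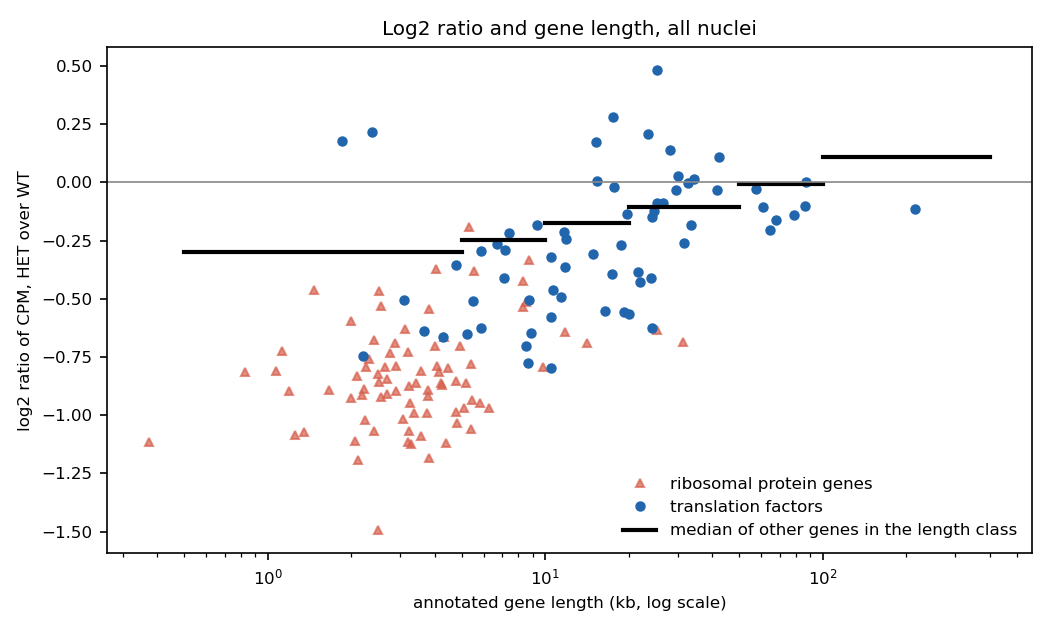
Log2 ratio of CPM (HET over WT) in all nuclei against annotated gene length (kb, log axis) for translation factors (circles) and ribosomal protein genes (triangles), with black bars for the median of all other genes in each length class (the end classes are open). Factors under 10 kb lie mostly below the bars, with medians of −0.50 and −0.51, and ribosomal protein genes lie lower still.

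The 9 members listed as TOP mRNAs from general knowledge (*Eef1a1*, *Eef1b2*, *Eef1d*, *Eef1g*, *Eef2*, *Eif3e*, *Eif3f*, *Eif3h* and *Eif4b*) had a median of −0.29, with 7 lower, and the 58 other members −0.25, with 48 lower. Of all genes, 58.9% were lower. Other translation genes differed between groups. Of 54 such genes, 44 were lower in HET (58.9% of all genes) and 10 at or below −0.5 (19.1% of all genes). Their median was −0.16, against −0.09 over all genes. The same 58.9% stands beside the group counts that follow. The 20 cytoplasmic tRNA synthetase genes had a median of −0.13 (17 lower), 4 genes of termination and recycling 0.02 (2 lower), 8 genes of the mTOR branch −0.23 (6 lower) and 4 genes of the stress response, *Atf4* and *Ddit3* among them, −0.33 (4 lower). The 7 selenocysteine and mitochondrial factor genes had a median of −0.31 (6 lower) and 6 other initiation proteins one of −0.27 (5 lower). Among 5 genes of poly(A)-binding proteins, which are partners of eIF4G, and their regulators, 4 were lower and the median was −0.14. *Pabpc1* was at 82.5 and 43.1 CPM (−0.94) and *Pabpc4* was at 147 and 73.4 CPM (−1.002), both lower than any factor, whereas *Paip1*, *Paip2* and *Paip2b* lay between −0.14 and 0.07.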

How the data were processed

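The authors deposited raw counts, that is UMIs for each gene in each nucleus, from 10x Chromium 3′ v3.1 libraries of brainstem nuclei (1 WT, 1 HET). Per the labels and methods, reads were aligned and counted with Cell Ranger (version not given in the sources used here) on its mm10 reference and filtered in Seurat 4.1. Mitochondrial and hemoglobin genes and called doublets had been removed. The deposited percent values give mitochondrial and ribosomal protein UMIs per nucleus, and the deposited doublet score came from a caller that the methods leave unnamed. Clusters, reference labels and genotypes of nuclei were taken as deposited. *Eif2s3y*, which the authors list as removed, was not in the counts and is not analysed here. *Rpl26* and *Rpl35a*, which the authors also list as removed, were in the counts and are among the ribosomal protein genes compared.

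UMIs were summed per library or cluster. A list was summarized by the median over genes with at least 20 UMIs in both libraries together. Ratios have exact conditional binomial intervals, levels exact Poisson intervals and shares Clopper-Pearson intervals at 95%. Gene lengths and overlaps came from GENCODE vM21 and start sites from RefSeq on GRCm38.p6. The computation was tested on simulated counts with known changes. Python 3.11.15 was used with scipy 1.17.1, numpy 2.4.6, pandas 2.3.3 and matplotlib 3.10.9.

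Named genes are the 10 members with most UMIs, the 5 highest and 5 lowest log2 ratios among those with at least 200 UMIs, and a fixed set of factors with their paralogs. Other members named in counts or as extremes, and the poly(A)-binding genes, were chosen after their values were seen. The members and lists were chosen with earlier results of these data known. Alternatives changed the scaling, library totals, cluster weights, averaging, nucleus filters and minimum count. Limits to nuclei with agreeing labels or under 1% mitochondrial UMIs were added after seeing the data.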

Additional observations from a re-analysis of the deposited data

Results flagged for a closer look

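*Eif3h*, an eIF3 subunit gene, was the only member whose counting intervals lay on opposite sides of 0 in different clusters. Its log2 ratio (HET over WT) was 0.52 in neuron.4, from 49 WT and 178 HET UMIs, but −1.31 in fibro, from 30 and 11 UMIs, and −0.11 in neuron.1, from 1811 and 1412 UMIs. The difference between clusters was not tested. *Eif2c5* held 9 UMIs in HET and 0 in WT, above the 3 counts that an observed 0 allows, and was too low for the comparisons.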

How the results depend on the processing

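No paired analysis was possible because each genotype had 1 library and no test was made. The factor median stayed between −0.29 and −0.16 and the number of members lower in HET between 48 and 59 under every alternative run. The shares over all genes were not recomputed for the alternatives. With the median of genes with at least 200 UMIs set to 0, the ribosomal protein median was −0.75, and 10 factors stood at or below −0.5 and 1 at or above 0.5. In that scaling the medians were −0.018 for the cap-binding and helicase genes, 0.052 for the eIF2 kinases, −0.30 for eIF3, −0.20 for the elongation factors, −0.19 for the TOP list and −0.057 for other translation genes. As a mean over nuclei of CPM the ribosomal protein median was −0.97. The number of factors at or above 0.5, 0 as reported, was 1 with equal cluster weights, with the mean over nuclei, with nuclei of at least 2000 UMIs, without the 5% highest doublet scores and with agreeing labels. *Eif4ebp1* changed sign, to 0.033 with equal cluster weights and 0.015 without the highest doublet scores. Cluster medians were less stable. With a minimum of 100 UMIs they were −0.56 in neuron.7 (2 members left), −1.23 in epend.1 (3 members), 0.0073 in neuron.5 (7 members) and −0.77 in endo (21 members). With agreeing labels they were 0.26 in fibro, −0.50 in micro, −0.040 in neuron.5 and −0.32 in epend.1. In fibro the median was −0.31 without the highest doublet scores and −0.26 with nuclei of at least 2000 UMIs, and in neuron.1 it was −0.13 with the median of genes set to 0. A 1-library design leaves the spread between mice unmeasured, and clusters with few nuclei in a library (neuron.5, neuron.7, epend.1) have wide intervals.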

Other observations

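The 4 clusters with under 30 nuclei in 1 of the libraries were not compared. In epend.2 the factors summed to 2982 CPM in 108 WT nuclei and 2362 CPM in 6 HET nuclei, in neuron.6 to 2000 CPM in 120 and 1903 CPM in 5, and in neuron.8 to 1891 CPM in 44 and 1549 CPM in 9. The cluster neuron.9 differed in level. Its 35 WT nuclei, at a median mitochondrial share of 6.64%, held factors at 11064 CPM and ribosomal protein genes at 114211 CPM, and its 2 HET nuclei held 9270 and 49605 CPM.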
